A study of Mus musculus with 12 samples.

Results

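The 10 genes described here are secreted signals of the mouse myoblast line C2C12: the CC chemokines Ccl2, Ccl5 and Ccl7, the CXC chemokines Cxcl1, Cxcl5, Cxcl10 and Cxcl12, the growth factor Csf1 and the IL-6 family cytokines Il6 and Lif. They were found on the arrays through the transcript accession of each probe, which gave 13 of 39429 probes and 10 of 32451 genes. Csf1 had 3 probes, Cxcl12 had 2, and each of the other 8 genes had 1. All 13 probes were well above background, the scanner software's flag for a spot brighter than its surroundings, on all 12 arrays.

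Chemokines are small secreted proteins that draw leukocytes along a gradient by binding receptors on their surface. Ccl2, Ccl7 and Ccl5 act mainly on monocytes and T cells, Cxcl1 and Cxcl5 on neutrophils, Cxcl10 on activated T cells, and Cxcl12 on cells that carry Cxcr4, among them stem and progenitor cells. Csf1 keeps macrophages alive and dividing, and Il6 and Lif signal through the shared receptor subunit gp130 (Il6st) to STAT3. In muscle, such signals are known from injury and regeneration, in which myoblasts and macrophages exchange them. Cxcl10 and Ccl5 belong to the genes that interferon and NF-kappaB switch on, while Il6 and Cxcl1 are known NF-kappaB targets.

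RNA was measured 72 h after transfection on 12 single-colour Agilent arrays, 3 in each of 4 groups. All groups were C2C12 cells kept in growth medium with serum. They had been given the negative control, the plasmid pcDNA3.1, the plasmid pcDNA3.1-MEG3, or siRNA, and by their titles the last 2 stand for overexpression and knockdown of MEG3, a long non-coding RNA. The labels do not say whether the negative control was a control siRNA, and the titles call the pcDNA3.1 arrays pat1, a name they do not explain. Signals are given as the log2 of the processed signal minus that array's 75th percentile, so a value of 0 is the 75th percentile.

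Between 24454 and 29928 probes per array were well above background. The siRNA arrays had the fewest, 24556, 27055 and 24454, where the lowest other array had 27278. They also had the most probes whose spots were all marked as outlying and dropped. These were 431, 232 and 317 probes, against 23 to 107 on the arrays of the other groups. How far this shaped the siRNA comparisons was not tested. Replicates 1 and 3 of each plasmid group and of siRNA shared a slide position and were treated as 2 scans of 1 hybridisation. Replicates 1 and 3 of the negative control differed by 0.762 times the noise between spots, unlike the other pairs of that group, and were averaged too. Replicate 2 of each plasmid group also lay within spot noise of replicates 1 and 3. The ratios were 0.834 and 0.842 for pcDNA3.1 and 0.869 and 0.865 for pcDNA3.1-MEG3. It was nevertheless kept as a separate sample, which left 2 samples per group. Replicate 2 of the negative control stood apart from replicates 1 and 3 of its group, at 4.79 and 4.26 times spot noise. Whether replicates came from separate cultures is not stated, and all p-values here reflect only how these samples scatter, possibly for technical reasons. The negative control, plasmid and siRNA arrays lay on separate slides: slide and group cannot be told apart except between pcDNA3.1 and pcDNA3.1-MEG3. The brightest Meg3 probe went against the labels. On the arrays labelled pcDNA3.1, 3 of 3 had it well above background (mean -2.43), against 0 of 3 labelled pcDNA3.1-MEG3, 1 of 3 of the negative control and 0 of 3 labelled siRNA. Directions between groups therefore hold for the labels only.

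Promoters are shown for the 4 genes whose level differed from the negative control and for which RefSeq's table (build GRCm38.p6) holds the sequence, each from 250 bases upstream up to the transcription start, in the direction of transcription. Promoters of 6 of the 10 genes matched, and those of Ccl2, Ccl5, Ccl7 and Cxcl5 did not. Capitals mark letters that match a motif on either strand: the NF-kappaB consensus, the core of the interferon-stimulated response element (ISRE: GAAA, any 2 bases, GAAA), or the AP-1 motif TGANTCA. The sequences are chr5:92348890-92349139, minus strand, for Cxcl10, and on the plus strand chr5:30012864-30013113 for Il6, chr11:4257318-4257567 for Lif and chr5:90890995-90891244 for Cxcl1.
Cxcl10: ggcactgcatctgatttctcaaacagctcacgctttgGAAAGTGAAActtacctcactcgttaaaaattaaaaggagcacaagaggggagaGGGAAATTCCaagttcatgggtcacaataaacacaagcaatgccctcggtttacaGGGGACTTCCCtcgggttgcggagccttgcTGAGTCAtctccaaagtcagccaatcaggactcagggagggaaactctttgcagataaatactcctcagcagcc
Il6: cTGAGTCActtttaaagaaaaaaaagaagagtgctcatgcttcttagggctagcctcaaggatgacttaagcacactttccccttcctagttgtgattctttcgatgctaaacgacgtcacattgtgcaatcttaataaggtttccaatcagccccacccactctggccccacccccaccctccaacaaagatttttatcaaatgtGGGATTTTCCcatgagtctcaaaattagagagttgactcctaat
Lif: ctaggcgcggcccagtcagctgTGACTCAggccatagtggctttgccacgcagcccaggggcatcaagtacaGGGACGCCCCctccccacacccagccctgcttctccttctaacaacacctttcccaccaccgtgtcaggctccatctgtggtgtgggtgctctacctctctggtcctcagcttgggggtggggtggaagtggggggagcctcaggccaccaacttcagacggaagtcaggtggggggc
Cxcl1: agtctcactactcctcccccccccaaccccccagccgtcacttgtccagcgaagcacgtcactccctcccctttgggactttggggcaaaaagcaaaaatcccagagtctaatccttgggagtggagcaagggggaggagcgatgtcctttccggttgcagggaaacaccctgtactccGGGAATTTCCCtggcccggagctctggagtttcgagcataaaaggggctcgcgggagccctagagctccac

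Cxcl10 was the only gene of the 6 with the ISRE core, GAAAGTGAAA at 213 to 204 bases before the start, a motif found in 2.98% of all 32851 promoters of this length in the table. It also held the NF-kappaB consensus at 159 to 150, at 104 to 95 and at 103 to 94 bases, the last 2 places overlapping, and an AP-1 motif at 74 to 68 bases. Il6 had the NF-kappaB consensus at 44 to 35 bases and an AP-1 motif at 249 to 243 bases. Lif had them at 178 to 169 and at 228 to 222 bases. Cxcl1 held the NF-kappaB consensus in 2 overlapping places, 71 to 62 and 70 to 61 bases before the start, and Csf1 in 1 place, 154 to 145 bases. Thus 5 of the 6 promoters held the NF-kappaB consensus, which 7.25% of all promoters held, and 3 of 6 held the AP-1 motif, which 6.75% held. Cxcl12 matched none of these motifs, and none of the 6 matched the STAT motif TTCNNNGAA (7.02% of all promoters) or TATAAA (12.4%). A match is a string of letters and not a measured binding site.

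With plasmid transfection, 4 of the 10 genes were higher than in the negative control: Ccl5, Il6, Cxcl10 and Ccl7. With siRNA, Lif, Cxcl10 and Il6 were higher than in the negative control, and Ccl5 and Cxcl1 were lower. Of all genes tested, 21.8% were called between both plasmid groups and the negative control and 12.4% between siRNA and the negative control, by limma with a Benjamini-Hochberg adjusted p under 0.05. By direction, the 4 of 10 genes higher with plasmids stood beside 13.3% of all genes, and the 0 of 10 lower beside 8.56%. The 3 of 10 higher and 2 of 10 lower with siRNA stood beside 7.75% and 4.64%. The median difference of the 10 genes was 0.31 log2 with plasmids, where that of all genes was 0.18, and -0.40 with siRNA, where that of all genes was 0.06.

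Set directly against both plasmid groups, the siRNA arrays were lower in Ccl5, Ccl7, Ccl2 and Cxcl1 and higher in Lif. Cxcl12 was called lower by its brighter probe, while its other probe went the other way (0.48 log2, limma adjusted p = 0.126). By the brightest probes, 6 of 10 genes were called, where 18.7% of all genes were: 5 lower beside 8.16% and 1 higher beside 10.6%. The median difference of the 10 genes was -0.54 log2, and that of all genes was -0.11. This comparison tests how far the plasmid and siRNA differences, which share the negative control, lay from each other. Between pcDNA3.1-MEG3 and pcDNA3.1, limma called 0 of 10 genes, as well as only 0.00814% of all genes (2 genes, with 2497 at an unadjusted p under 0.05). None of the 10 reached an unadjusted p under 0.05 there, and the nearest was Cxcl10, at 0.0568.

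**Figure D1:**
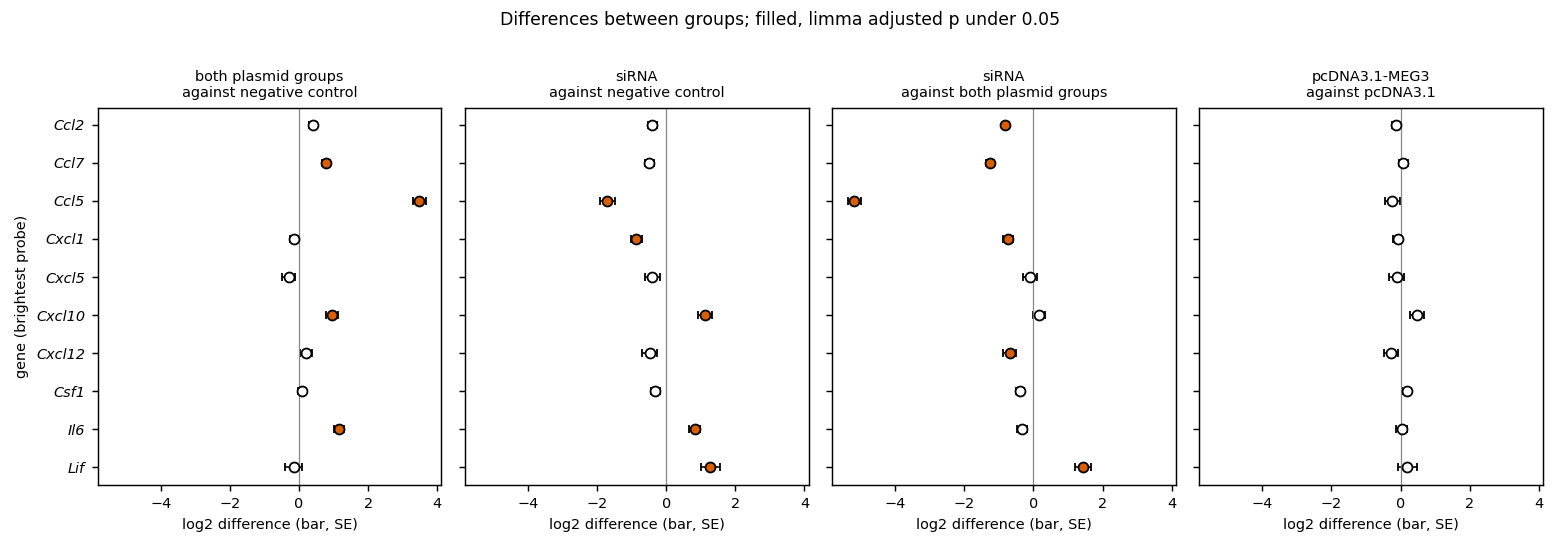
Log2 differences of the 10 genes between groups (points, with bars of 1 SE) in 4 comparisons, filled where the limma adjusted p was under 0.05. Ccl5 lies farthest from 0, at 3.48 with plasmids and -5.18 for siRNA against the plasmid groups, and no gene is filled between the plasmid groups.

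How arrays were counted as samples changed how many genes were called. With arrays that differed by less than spot noise counted as 1 sample, which leaves a single sample in each plasmid group, 0 of the 10 genes were called against the negative control in either comparison, where 0.542% of all genes were called with plasmids and 0.644% with siRNA. Between siRNA and both plasmid groups 1 was, Ccl5, beside 0.783% of all genes. Fitted on the siRNA and negative control samples alone, 0 of the 10 were called between those groups, beside 0.636% of all genes. Centring each array on its median moved the median of all genes from 0.18 to -0.23 log2 for both plasmid groups against the negative control, and the share of calls that were higher from 60.8% to 18.2%. That share was 46.0% after quantile normalisation and 46.0% in the authors' deposited table. For siRNA against the negative control it went from 62.5% to 41.1%, and for siRNA against both plasmid groups from 56.5% to 78.4% (68.6% after quantile normalisation). After centring on the median, 3 of the 10 genes were called between the plasmid groups and the negative control: Ccl5 and Il6, higher, and Cxcl1, lower (-0.55, adjusted p = 0.04). That was close to the share of all genes called under this setting, 28.1%.

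Ccl5 (RANTES), which attracts T cells, monocytes and eosinophils, varied most of the 10. It measured 5.17, 5.18 and 5.11 on the pcDNA3.1 arrays and 4.96, 4.89 and 4.95 on the pcDNA3.1-MEG3 arrays. It measured 1.87, 1.25 and 1.89 in the negative control and -0.12, -0.13 and -0.18 with siRNA. Every plasmid array was above every negative control array, and every siRNA array was below them. The level was 11.1-fold higher with plasmids than in the negative control (3.48 ± 0.19 log2, SE, adjusted p = 0.000416) and 3.26-fold lower with siRNA (-1.71 ± 0.22, adjusted p = 0.00952). Between siRNA and both plasmid groups it was 36.3-fold lower (-5.18 ± 0.19, adjusted p = 0.00012), the one call among the 10 genes that held under all 18 alternatives. Over those, the difference lay between -5.37 and -4.95 and the adjusted p reached at most 0.033. The group means spanned 5.30 log2 units, more than for 99.8% of genes, where the median gene spanned 0.84. Counting arrays within spot noise as 1 sample left adjusted p = 0.0523 for plasmids and 0.139 for siRNA against the negative control, and 0.139 for siRNA with only those groups fitted. In these bulk samples, a change in the number of expressing cells and a change in RNA per cell cannot be told apart.

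Ccl2 (MCP-1) and Ccl7 (MCP-3) are monocyte attractants and direct neighbours on chromosome 11 (RefSeq, GRCm38.p6). Their groups lay in the same order as for Ccl5, except that Ccl7 had the plasmid groups reversed. Ccl7 measured 4.03, 3.97 and 4.02 with pcDNA3.1, 4.04, 4.10 and 4.07 with pcDNA3.1-MEG3, 3.22, 3.30 and 3.24 in the negative control and 2.84, 2.73 and 2.81 with siRNA. No array of these 4 groups overlapped an array of another, although the plasmid groups lay 0.08 apart. Ccl7 was 1.71-fold higher with plasmids than in the negative control (0.77 ± 0.11 log2, SE, adjusted p = 0.00854) and 2.39-fold lower with siRNA than with plasmids (-1.26 ± 0.11, adjusted p = 0.00161). The first of these calls was lost with each array centred on its median (0.35, adjusted p = 0.0889), without replicate 2 of pcDNA3.1-MEG3 (0.76, adjusted p = 0.0506) and with arrays within spot noise as 1 sample (adjusted p = 0.193). The second was lost with the last of these settings alone (adjusted p = 0.116). Against the negative control, Ccl7 with siRNA differed by -0.49 ± 0.13 and did not pass (adjusted p = 0.0605), but it passed under 7 of 16 alternatives.

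Ccl2 measured 4.24, 4.22 and 4.21 with pcDNA3.1 and 4.10, 4.13 and 4.07 with pcDNA3.1-MEG3. It measured 3.83, 3.67 and 3.85 in the negative control and 3.37, 3.37 and 3.33 with siRNA. The 4 groups did not overlap, with the plasmid arrays highest and the siRNA arrays lowest. Ccl2 was 1.75-fold lower with siRNA than with plasmids (-0.81 ± 0.11 log2, SE, adjusted p = 0.0076), a call lost only with arrays within spot noise as 1 sample (adjusted p = 0.214). Against the negative control it differed by 0.41 ± 0.11 with plasmids (adjusted p = 0.0517) and by -0.40 ± 0.13 with siRNA (adjusted p = 0.104), and neither passed. The plasmid difference passed under 8 of 18 alternatives and was -0.01 with each array centred on its median.

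**Figure D2:**
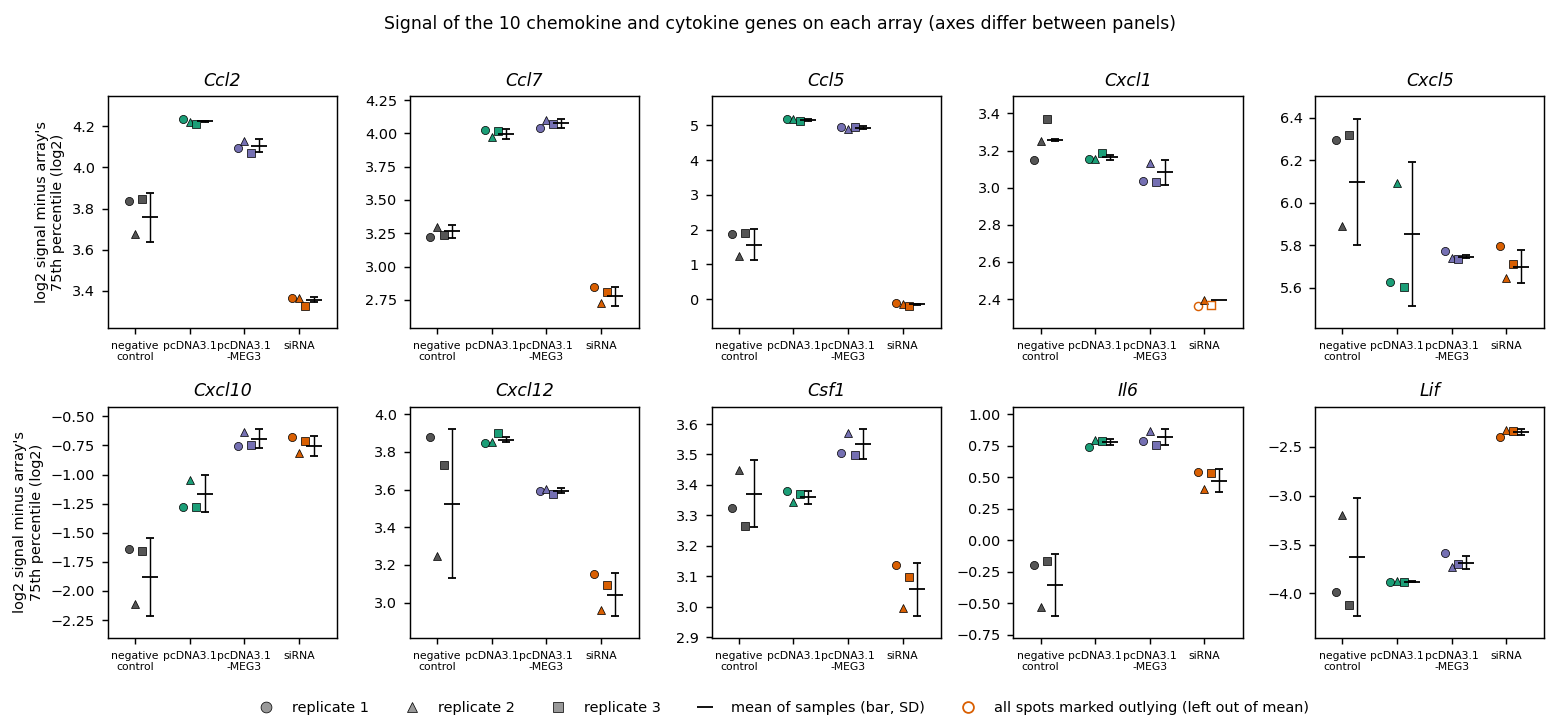
Signal of each gene's brightest probe on all 12 arrays (log2 minus the array's 75th percentile; symbols mark replicates 1, 2 and 3; the dash and bar give the mean and SD of the 2 samples per group). Ccl5, Ccl2 and Ccl7 are highest on plasmid arrays and lowest on siRNA arrays, while Lif is highest on siRNA arrays; open symbols for Cxcl1 are 2 siRNA arrays left out of its mean.

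Cxcl1 (KC), a neutrophil attractant, was lowest with siRNA. It measured 3.15, 3.25 and 3.37 in the negative control, 3.15, 3.15 and 3.19 with pcDNA3.1 and 3.04, 3.13 and 3.03 with pcDNA3.1-MEG3. On siRNA replicates 1 and 3 all of its spots were marked as outlying and were dropped, so the siRNA group rested on replicate 2 alone, at 2.39. With those spots kept, the siRNA arrays measured 2.36, 2.32 and 2.37. All of these lay below every other array, while the negative control overlapped pcDNA3.1 and both plasmid groups lay within their spread of each other. The fit gave 1.82-fold less with siRNA than in the negative control (-0.86 ± 0.17 log2, SE, adjusted p = 0.0375) and 1.66-fold less than with plasmids (-0.73 ± 0.15, adjusted p = 0.0341). Both calls were lost with no filter on dim probes (adjusted p = 0.076 and 0.0696). The second was also lost with arrays centred on their median (adjusted p = 0.112) and on leaving out any 1 sample of either plasmid group: adjusted p = 0.106 and 0.116 without replicate 2 and without replicates 1 and 3 of pcDNA3.1, and 0.133 and 0.117 for pcDNA3.1-MEG3. The first was lost with arrays within spot noise as 1 sample and with only the groups compared (adjusted p = 0.31 in both), and the second with the former of these (adjusted p = 0.358).

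Cxcl5 (LIX), the other neutrophil attractant, passed in 0 of the 4 comparisons. It measured 6.30, 5.89 and 6.32 in the negative control and 5.63, 6.09 and 5.61 with pcDNA3.1. It measured 5.77, 5.74 and 5.73 with pcDNA3.1-MEG3 and 5.80, 5.65 and 5.71 with siRNA. All neighbouring groups overlapped, and in both the negative control and pcDNA3.1 the sample of replicate 2 stood apart from replicates 1 and 3. Differences from the negative control were -0.40 ± 0.22 log2 (SE) with siRNA (adjusted p = 0.305) and -0.30 ± 0.19 with plasmids (adjusted p = 0.299). They were -0.61 and -0.51 without replicate 2 of the negative control, and -0.19 and -0.09 without its replicates 1 and 3, and passed in neither case. Its group means spanned 0.40 log2 units, a smaller span than in most genes, with 14.9% of genes below it.

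Cxcl10 (IP-10), the interferon-induced attractant of T cells, was lowest in the negative control. It measured -1.64, -2.12 and -1.65 there and -1.28, -1.05 and -1.28 with pcDNA3.1. It measured -0.75, -0.63 and -0.75 with pcDNA3.1-MEG3 and -0.67, -0.82 and -0.71 with siRNA. The last 2 groups overlapped, and pcDNA3.1 lay between them and the negative control without overlap. Cxcl10 was 1.94-fold higher with plasmids than in the negative control (0.95 ± 0.17 log2, SE, adjusted p = 0.0166) and 2.18-fold higher with siRNA (1.13 ± 0.20, adjusted p = 0.0232). Between siRNA and both plasmid groups it differed by 0.17 ± 0.17 (adjusted p = 0.483).

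The Cxcl10 call for plasmids was lost without replicate 2 of pcDNA3.1 (0.90, adjusted p = 0.055), without replicate 2 of pcDNA3.1-MEG3 (0.92, adjusted p = 0.0707) and without its replicates 1 and 3 (0.98, adjusted p = 0.0617). It was also lost with arrays centred on their median (0.53, adjusted p = 0.0822) and with arrays within spot noise as 1 sample (adjusted p = 0.209). The siRNA call was lost without replicates 1 and 3 of siRNA (1.06, adjusted p = 0.0673), with arrays within spot noise as 1 sample (adjusted p = 0.188) and with only the groups compared (adjusted p = 0.189). Between the plasmid groups, Cxcl10 was 0.47 ± 0.20 log2 higher on arrays labelled pcDNA3.1-MEG3 and did not pass (adjusted p = 0.503), but with 12 arrays taken as 12 samples it did (0.49, adjusted p = 0.0397), the only gene of the 10 to do so in that comparison.

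Cxcl12 (SDF-1), the ligand of Cxcr4 and Ackr3, was read by 2 probes that disagreed on the siRNA arrays. The brighter probe, A_51_P172502, was made for transcript variant NM_001012477. It measured 3.88, 3.25 and 3.73 in the negative control, 3.85, 3.85 and 3.90 with pcDNA3.1, 3.59, 3.60 and 3.58 with pcDNA3.1-MEG3 and 3.15, 2.96 and 3.09 with siRNA. By this probe the siRNA arrays were lowest and overlapped no other group. The other probe, A_55_P1966204, for NM_021704, measured 3.22, 2.59 and 3.14, then 2.82, 2.76 and 2.82, then 2.48, 2.47 and 2.47, and 3.01, 3.23 and 2.99 in the same groups. By this probe the siRNA arrays were highest on average and overlapped the negative control.

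Between siRNA and both plasmid groups, the brighter Cxcl12 probe differed by -0.69 ± 0.18 log2 (SE, adjusted p = 0.0489) and the other by 0.48 ± 0.19 (adjusted p = 0.126). The call of the brighter probe was lost under 9 of 18 alternatives. On leaving out any 1 sample of the plasmid or siRNA groups, the difference stayed between -0.77 and -0.61 and the adjusted p between 0.0913 and 0.151. The lowest of these was without replicates 1 and 3 of siRNA and the highest without replicate 2 of siRNA, with 0.121 and 0.134 for pcDNA3.1 and 0.145 and 0.139 for pcDNA3.1-MEG3. No direction is therefore given for Cxcl12 as a gene. Both probes lay lower on arrays labelled pcDNA3.1-MEG3 than on pcDNA3.1 arrays, without overlap. They differed by -0.27 ± 0.21 and -0.32 ± 0.22, and neither passed (adjusted p = 0.654 and 0.592).

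Csf1 (M-CSF), the survival factor of macrophages, was read by 3 probes, all lowest on the siRNA arrays. The brightest, A_51_P195506, for NM_007778, measured 3.32, 3.45 and 3.26 in the negative control, 3.38, 3.34 and 3.37 with pcDNA3.1, 3.50, 3.57 and 3.50 with pcDNA3.1-MEG3 and from 3.00 to 3.14 with siRNA. It passed in 0 of the 4 comparisons, with -0.31 ± 0.13 log2 (SE) for siRNA against the negative control (adjusted p = 0.192) and -0.39 ± 0.12 against both plasmid groups (adjusted p = 0.0686). The probes A_55_P2017914 and A_55_P2169669, both for NM_001113530, spanned 0.56 to 0.69 and 1.23 to 1.33 on the siRNA arrays, against 1.43 to 1.90 and 1.96 to 2.49 in the negative control. On neither did the siRNA arrays overlap another group.

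With each probe fitted as a row of its own, both of these Csf1 probes were called lower with siRNA than in the negative control, at -1.03 ± 0.18 log2 (SE, adjusted p = 0.0241) and -0.93 ± 0.19 (adjusted p = 0.034). Against both plasmid groups the first was called (-0.62 ± 0.16, adjusted p = 0.0443) and the second was not (-0.56 ± 0.16, adjusted p = 0.0665). For plasmids against the negative control the probes differed in sign: 0.08 ± 0.12 on the brightest, where it was -0.34 with arrays centred on their median, and -0.40 ± 0.16 and -0.38 ± 0.16 on the others, of which none passed. The probes thus differed in the size of the siRNA difference and not in its sign. Csf1r, the receptor of Csf1, was 1.76-fold higher with siRNA than in the negative control (0.81 ± 0.17, adjusted p = 0.0342).

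**Figure D3:**
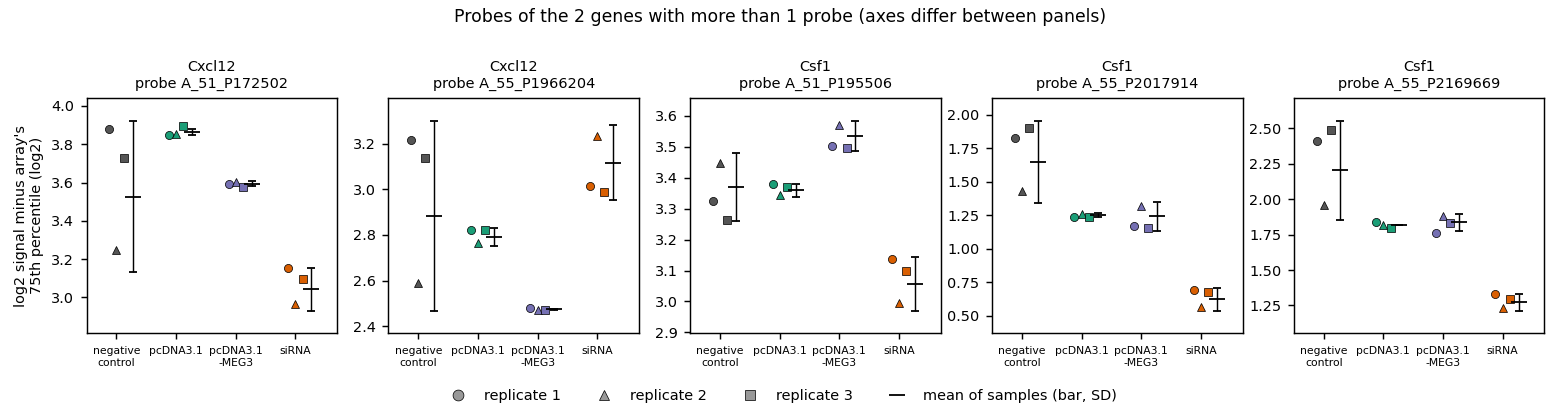
Signal of the 2 Cxcl12 probes and the 3 Csf1 probes on the 12 arrays (log2 minus the array's 75th percentile; symbols mark replicates, dash and bar the mean and SD of the 2 samples per group). The siRNA arrays are lowest on Cxcl12 probe A_51_P172502 and on all Csf1 probes, and highest on average on Cxcl12 probe A_55_P1966204.

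Il6, the inflammatory and muscle-derived cytokine that gives its family its name, was lowest in the negative control. It measured -0.20, -0.53 and -0.17 there, 0.74, 0.80 and 0.79 with pcDNA3.1, 0.79, 0.86 and 0.75 with pcDNA3.1-MEG3 and 0.54, 0.41 and 0.53 with siRNA. The plasmid groups overlapped each other, the siRNA arrays lay below them, and all of these lay above the negative control. Il6 was 2.23-fold higher with plasmids than in the negative control (1.16 ± 0.14 log2, SE, adjusted p = 0.00559), a call lost only with arrays within spot noise as 1 sample (adjusted p = 0.153). With siRNA it was 1.77-fold higher (0.83 ± 0.16, adjusted p = 0.0309). That call was lost without replicates 1 and 3 of siRNA (0.76, adjusted p = 0.095), with no filter on dim probes (adjusted p = 0.0569) and with arrays centred on their median (0.64, adjusted p = 0.0717). It was lost too with arrays within spot noise as 1 sample and with only the groups compared (adjusted p = 0.235 in both). Between siRNA and plasmids Il6 differed by -0.33 ± 0.14 (adjusted p = 0.149).

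Lif, the leukaemia inhibitory factor, a gp130 cytokine that promotes myoblast proliferation, was the gene of the 10 with a higher level on siRNA arrays than in all other groups. It measured -2.40, -2.33 and -2.34 with siRNA and -3.98, -3.20 and -4.12 in the negative control. It measured -3.88, -3.88 and -3.89 with pcDNA3.1 and -3.58, -3.73 and -3.70 with pcDNA3.1-MEG3. The siRNA arrays overlapped no other group, and the negative control spanned both plasmid groups. Lif was 2.43-fold higher with siRNA than in the negative control (1.28 ± 0.28 log2, SE, adjusted p = 0.0383) and 2.70-fold higher than with plasmids (1.43 ± 0.24, adjusted p = 0.0133). With plasmids Lif differed from the negative control by -0.16 ± 0.24 (adjusted p = 0.655). That difference was -0.58 (adjusted p = 0.0104) against replicate 2 of the negative control alone and 0.27 (adjusted p = 0.0513) without it. Its raw signals of 70.1 to 253 were the lowest of the 10 probes.

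Against the negative control, the Lif call was kept in 9 of 16 alternatives. It was lost without replicate 2 of siRNA (1.26, adjusted p = 0.0585) and without its replicates 1 and 3 (1.30, adjusted p = 0.0832), with no filter on dim probes (adjusted p = 0.0601), with arrays centred on their median (1.09, adjusted p = 0.0717) and in the authors' deposited table (1.07, adjusted p = 0.0507). It was lost as well with arrays within spot noise as 1 sample and with only the groups compared (adjusted p = 0.227 in both). Against the plasmid groups it was lost with the former of these (adjusted p = 0.204), without replicates 1 and 3 of pcDNA3.1 (1.43, adjusted p = 0.0507), without replicate 2 of pcDNA3.1-MEG3 (1.41, adjusted p = 0.0591) and without its replicates 1 and 3 (1.46, adjusted p = 0.0539). In all alternatives run, both differences stayed above 0, at 0.85 to 1.70 and 1.13 to 1.67.

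Of 17 receptor genes for such signals on the array, 12 passed the filter on dim probes and entered the fit. With plasmids 1 of 12 was called, beside 21.8% of all genes, and with siRNA 2 of 12, beside 12.4%. The one called with plasmids was Ackr3, the scavenging receptor of Cxcl12, 1.87-fold higher (0.90 ± 0.16 log2, SE, limma adjusted p = 0.0157). With siRNA, Ackr3 (1.03 ± 0.18, adjusted p = 0.0238) and Csf1r were called higher, and Csf1r was also 2.15-fold higher than with plasmids (1.11 ± 0.15, adjusted p = 0.00637). Il6st, Il6ra, Lifr, Osmr and Cxcr4 entered the fit and passed in 0 of the 4 comparisons. The median receptor differed by 0.01 log2 with plasmids and by -0.05 with siRNA.

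Among 39 other chemokines and cytokines in the fit, 7 were higher and 4 lower with plasmids, beside 13.3% and 8.56% of all genes. Their median difference was 0.18 log2, the same as that of all genes. Ccl8, a chemokine close to Ccl2 and Ccl7, was 3.82-fold higher (1.94 ± 0.13, SE, adjusted p = 0.000815). Ebi3, a subunit of IL-27 and IL-35, was at least 3.88-fold higher (fit 3.22 ± 0.77, adjusted p = 0.0348). The bound sets the brighter group's mean against a floor on each array of the dimmer group, the lowest signal of any probe flagged well above background there, or the probe's own where that is higher. Il12a, a subunit of IL-12, was at least 10.6-fold lower with plasmids (adjusted p = 0.000361), and Il33, an alarmin cytokine, was 3.12-fold lower (-1.64 ± 0.19, adjusted p = 0.00443).

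With siRNA, 6 of the 39 were higher than in the negative control and 1 was lower, beside 7.75% and 4.64% of all genes. Cxcl13, the B cell attractant, and Il1b, the inflammatory cytokine, were not well above background on any negative control array. They were at least 12.6-fold and at least 4.27-fold higher with siRNA (adjusted p = 0.00233 and 0.00167). Ccl27a was 2.34-fold lower (-1.23 ± 0.29 log2, SE, adjusted p = 0.0467). Against both plasmid groups, 9 of 39 were higher and 3 lower, beside 10.6% and 8.16% of all genes. Cxcl13 was at least 12.4-fold and Il12a at least 7.98-fold higher. Of the 3 that were lower there, Ccl4 was at least 2.47-fold and Tslp 1.71-fold lower (adjusted p = 0.0225 and 0.00762). Between the plasmid groups, 0 of the 39 were called, beside 0.00814% of all genes.

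Genes downstream of the same signalling systems are given as counts. Of 28 interferon response genes, 27 were higher with plasmids and 0 lower, beside 13.3% and 8.56% of all genes. Their median difference was 3.56 log2. Oas2 and Oas1a, enzymes that sense double-stranded RNA, were at least 589-fold and at least 581-fold higher (adjusted p = 1.46e-05 for both). With siRNA, 13 of 28 were higher than in the negative control (median 0.83), beside 7.75% of all genes. Among them were Oas2, at least 5.11-fold, and Oas1a, at least 6.89-fold. Against plasmids, 27 of 28 were lower with siRNA (median -2.73), beside 8.16% of all genes. The remaining gene in both plasmid comparisons was Irf1, at 0.08 and -0.08. Ccl5, with siRNA below the negative control, lay outside the direction of those 13 genes, while Cxcl10 lay with it.

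Of 21 NF-kappaB feedback and target genes, 6 were higher and 5 lower with plasmids, beside 13.3% and 8.56% of all genes. Their median was 0.08 log2. Traf1, a signalling adaptor, was 4.55-fold higher (2.19 ± 0.20, SE, adjusted p = 0.00237) and Tnfaip2 1.86-fold higher (adjusted p = 0.0077). Zc3h12a, which degrades cytokine transcripts including that of Il6, was 3.93-fold lower (-1.97 ± 0.32, adjusted p = 0.0119), and Nfkb1 was 3.39-fold lower (adjusted p = 0.00524). With siRNA only Traf1 (13.2-fold higher, adjusted p = 0.00101) and the matrix protease Mmp3 (6.13-fold lower, adjusted p = 0.000683) were called against the negative control. These 2 of 21 stood beside 12.4% of all genes. Against plasmids 4 were higher and 2 lower with siRNA, beside 10.6% and 8.16% of all genes. Traf1 at 1.54 and Tnfaip3 at 1.23 were highest, and Mmp3 at -1.53 and Ptgs2 at -0.46 lowest.

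Of 15 gp130/STAT3 target genes, 4 were higher with plasmids and 0 lower, beside 13.3% and 8.56% of all genes. Their median was 0.37 log2. Lcn2, an iron-carrier-binding acute phase protein, was 7.66-fold higher (2.94 ± 0.16, SE, adjusted p = 0.000416), and Saa3, another acute phase protein, was 3.84-fold higher (adjusted p = 0.00325). With siRNA, Saa3 (1.22 ± 0.23, adjusted p = 0.0268) and Bcl6 (0.81 ± 0.19, adjusted p = 0.0471) were higher than in the negative control. The share of all genes called higher there was 7.75%. Against the plasmid groups, Timp1 was higher (0.86 ± 0.16, adjusted p = 0.0168) and 3 genes were lower, beside 10.6% and 8.16% of all genes. The 3 lower genes included Lcn2, 7.79-fold, and the kinase Pim1, 1.93-fold (adjusted p = 0.000403 and 0.0198). In the comparison of the plasmid groups, 0 genes of these lists were called, beside 0.00814% of all genes.

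**Figure D4:**
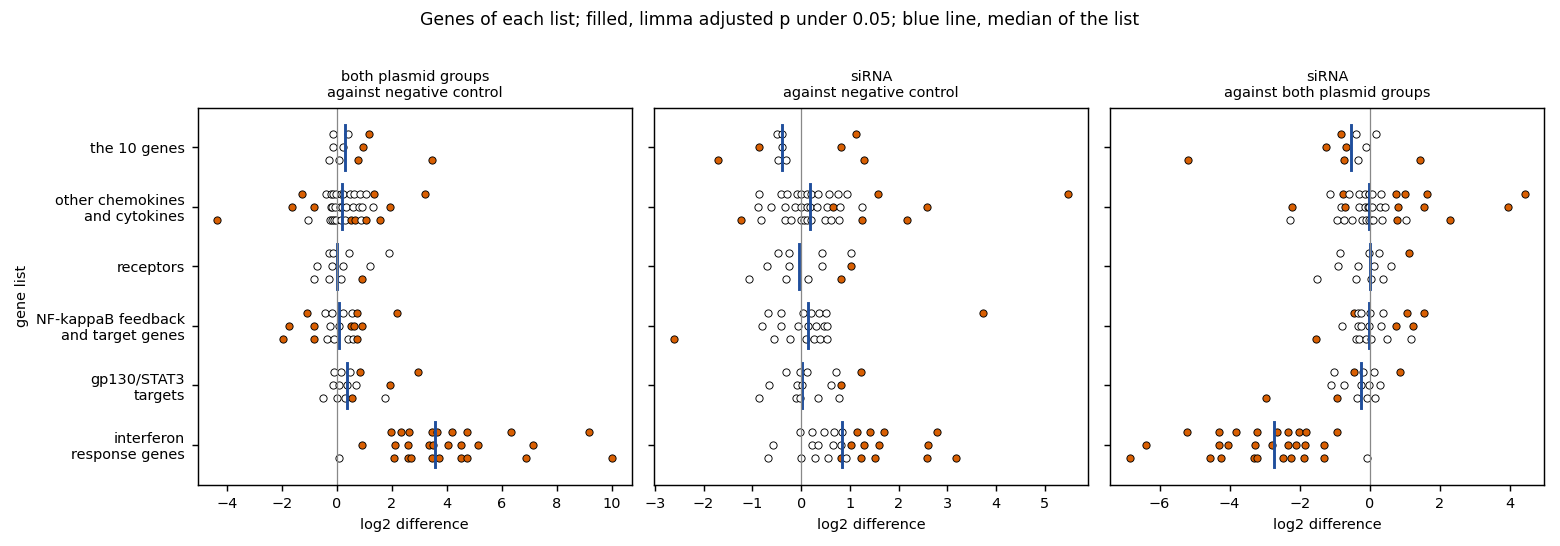
Log2 differences of the genes of each list in 3 comparisons (points, filled where the limma adjusted p was under 0.05; blue lines are list medians; genes dim in 1 group are placed at their fitted value). The interferon response genes lie right of 0 with plasmids, median 3.56, while the 10 chemokine and cytokine genes spread to both sides.

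The samples also differed in cell type markers. All 5 myotube markers were higher with siRNA than in the negative control, beside 7.75% of all genes, led by Actc1 and Myh3 (7.15 and 7.05 log2). Their summed signal was 15.4 to 23.6 times the array's 75th percentile with siRNA, against 0.574 to 0.657 in the negative control and 0.940 to 1.14 with plasmids. In this and the following sums, a marker whose spots on an array were all outlying counted as 0. Some sums thus rest on fewer markers, and their ranges are not only spread between arrays. Of 6 fibroblast and stromal markers, 4 were lower with plasmids than in the negative control, beside 8.56% of all genes. The sums of those not dropped on an array were 31.3 to 63.3 with plasmids, 114 to 173 in the negative control and 169 to 189 with siRNA. Their low ends can therefore reflect dropped spots. Col1a1, the brightest of the 6 in every group, had means of 6.28 in the negative control, 5.04 and 4.52 with plasmids and 6.99 with siRNA. Of 7 leukocyte markers on the array, 5 were well above background on all 12 arrays. The sums of all 7 were 3.06 to 3.53 in the negative control, 3.38 to 3.97 with plasmids and 2.57 to 3.04 with siRNA. Cd14, the brightest in every group, weighed most in them, at 0.55 in the negative control, 1.33 and 1.45 with plasmids and 0.38 with siRNA. Csf1r and Cd3e were highest with siRNA, Itgam in the negative control, and Ptprc, Adgre1 and Cd79a in a plasmid group. The defining leukocyte marker Ptprc had group means between -6.10 and -4.98, Cd14 was 1.79-fold higher with plasmids and Itgam 2.93-fold lower.

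The 4 endothelial markers summed to 0.893 to 0.951 in the negative control, 0.977 to 1.36 with plasmids and 0.942 to 1.32 with siRNA. None of the 4 was called, beside 21.8% of all genes with plasmids and 12.4% with siRNA against the negative control. Between siRNA and both plasmid groups that share was 18.7%. With so few markers, 0 calls is little to go by. The myoblast markers, which check the labelled cell type, were present: Myod1 was well above background on all 12 arrays, at -2.89 in the negative control and -0.60 with siRNA. Myf5 was at least 23.0-fold lower with plasmids, where 3 of 6 arrays were well above background, and 7.30-fold lower with siRNA (adjusted p = 0.00671) than in the negative control. For Pax7, 1 of 3 siRNA arrays and every array of the other groups exceeded background. Its means were nevertheless close with siRNA and in the negative control, at -4.59 and -4.30, and were -2.97 and -2.90 with plasmids. The myoblast sums were 24.8 to 30.4 in the negative control, 22.7 to 24.6 with plasmids and 40.4 to 42.0 with siRNA. Itga7 and Ncam1, the brightest in every group, weighed most in them. Itga7 had means of 3.44 in the negative control, 2.94 and 2.88 with plasmids and 4.26 with siRNA. Those of Ncam1 were 3.89, 3.97 and 3.78, and 4.18. The part of these markers in the levels of the 10 genes was not tested.

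Over the 8 samples, the genes most like each member were named by Pearson's r among 18322 genes well above background on all arrays, as a description, since 4 group means shape every value. They were H2-K1 and Try4 for Ccl5 (r = 0.999 and 0.998), P2rx3 and Hint2 for Ccl7 (0.999 and 0.996), and Noxred1 and Isoc1 for Ccl2 (0.994 and 0.993). They were Gm6034 and Zfp536 for Cxcl10 (0.981 for both), Pard6a and Sdf2l1 for Il6 (0.992 and 0.991), and Inha and Rcbtb2 for Lif (0.996 and 0.993). For Cxcl12 they were Adh5 and Pcbp3 (0.993 and 0.991), for Csf1 Ociad1 and BC003872 (0.983 for both), and for Cxcl1, over 7 samples, Slc43a1 and Adh1 (0.984 and 0.979). Cxcl5 had only lower values, 0.948 and 0.925, with 2 probes for which no reference symbol was found. The pairs for Ccl5 and Ccl7 held the highest values of the 10.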

How the data were processed

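Single-colour Agilent arrays of 12 samples were used. Spot intensity came from Agilent Feature Extraction (version 11.0.1.1, per the file headers), with background subtracted and with flags for spots that are well above background, outlying or saturated. The authors also deposited a table of processed, linear intensity values, with a scaling that the labels do not state. Of 44397 spots, 1377 controls and outlying spots were left out, 0 were saturated, and spots of a probe were averaged. From the log2 of the deposited scanner intensity, the 75th percentile of the array was subtracted. A RefSeq symbol was found for 27234 probes by accession, and 12195 went by the name in the files. A probe was kept if all arrays of some group had it well above background, and the brightest probe stood for its gene (24573 genes). The 8 samples were fitted with limma 3.58.1 in R 4.3.3, with 1 mean per group and two-sided tests (degrees of freedom: 4 residual, 1.90 prior). The threshold for a call was an adjusted p of 0.05 (Benjamini-Hochberg). The fit was tested on simulated data. With so few arrays, precision is limited by their number.

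Deviations of same-numbered arrays correlated at -0.118 to 0.0336 across groups, so replicate numbers did not pair samples. The 10 genes, the lists and the averaging were chosen with earlier results of these data known. Genes were named by rule: every member and probe, Meg3, at most the 2 highest and 2 lowest called genes per list and comparison, defining cell type markers, and the 2 genes most like each member. Irf1, Ccl5's position among the lists, and the receptors that did not pass were named after their values were seen. Alternatives were other scalings, the normexp background (run on median spot signals, as the mean signals planned for it were not in the columns used here), the authors' table, filters on dim or outlying spots, other probes, other groupings of the arrays and leaving out each sample.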

Additional observations from a re-analysis of the deposited data

How the results depend on the processing

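Of 690 tested differences of the 10 genes under other settings, 574 kept their direction and side of the threshold, 43 passed only there, 52 no longer passed and 21 changed sign. Of 20 untested values within 1 scan of the plasmid slide, 2 changed sign, both in the second scan: Cxcl5 (0.129) and Il6 (-0.0344). Counts of genes called are given in the order siRNA against the negative control, pcDNA3.1-MEG3 against pcDNA3.1, both plasmid groups against the negative control, and siRNA against both plasmid groups, and were 3040, 2, 5359 and 4595 with 5, 0, 4 and 6 of the 10 genes. They were 9847, 3008, 13035 and 12770 with 12 arrays as 12 samples (10, 1, 6 and 8 of the 10). In that setting 40.1% of all genes were called for siRNA and 53.1% for plasmids against the negative control, and 12.2% between the plasmid groups. Same-numbered arrays did not deviate together, and the fit of 12 arrays with the replicate number as a block gave 9274, 2276, 12541 and 12382 (9, 0, 6 and 8). With the block the shares of all genes were 37.8% for siRNA and 51.1% for plasmids against the negative control, and 9.27% between the plasmid groups. Arrays within spot noise as 1 sample gave 158, 0, 133 and 192 (0, 0, 0 and 1), and only the groups compared 156, 1960, 8377 and 9418 (0, 0, 4 and 8). The fits of 12 arrays take rescans as samples. Both of the last settings rest on fewer residual degrees of freedom than the main fit. Yet only the groups compared gave more calls than the main fit in every comparison but siRNA against the negative control. There 34.1% of all genes were called for both plasmid groups against the negative control and 7.98% between the plasmid groups. What set these counts was not tested.

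Leaving out a sample gave 1951 to 7445, 0 in every case, 1701 to 9216 and 1646 to 4883 genes, and 2 to 8, 0, 2 to 7 and 3 to 5 of the 10; a lone sample is then assumed to vary like the other groups. For siRNA against the negative control, normexp gave 1983 genes and no filter on dim probes 1966. The latter called 2 of the 10, beside 6.07% of all genes. Between the plasmid groups quantile normalisation gave 9, normexp 20 and probes well above background on all arrays 22, and 10 were called in the table of the authors. The cause was not tested.

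Of the 21 tested differences that changed sign, 1 had passed the threshold: Cxcl12 between siRNA and both plasmid groups, at 0.483 on its other probe, which was 0.233 against the negative control. Between the plasmid groups the others were Cxcl1 in the authors' table (0.00124), Il6 with normexp (-0.0123) and Csf1 on probe A_55_P2017914 (-0.0064). Leaving out a sample there gave -0.348 to 0.131 for Cxcl5 and -0.0107 to 0.0821 for Il6. For both plasmid groups against the negative control, centring on the median gave Ccl2 -0.0113, Cxcl12 -0.216 and Csf1 -0.343, and normexp gave Csf1 -0.0358. The other probes gave Cxcl12 -0.251 and Csf1 -0.404 and -0.375. Leaving out a sample gave -0.0769 to 0.483 for Cxcl12, -0.0014 to 0.153 for Csf1 and -0.581 to 0.27 for Lif. For siRNA against both plasmid groups, Cxcl5 was 0.131, 0.0057 and 0.012 with median, quantile and the authors' table, and -0.221 to 0.0188 on leaving out a sample. All 13 probes were flagged well above background on all 12 arrays, and Lif was the dimmest, with raw signals down to 70.1 in the negative control. With the normexp background, siRNA differed from the negative control by 1.01 log2 for Lif and 0.87 for Cxcl10. The main fit gave 1.28 and 1.13. How far background shaped these differences was not tested.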
